A study of Mus musculus with 3 samples.

Results

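Chromatin of Min6 cells that carried a control virus was precipitated with an antibody against Ets-1, and its reads were set against the input, chromatin of the same line sequenced without precipitation. The member regions are those with 5 or more reads in the control virus precipitation and 20 or fewer in the input, on chromosomes 1 to 19 and X. They number 11429 of the 542768 regions that the study's comparison table lists on these chromosomes, and of 543367 in all. Min6 is an insulin-producing line grown from a mouse insulinoma. Cells were kept in 25 mM glucose and received the control adenovirus Ad-GFP 24 h before chromatin was fixed for 10 min in 1% formaldehyde. No Ets-1 gene was added to these cells, so any Ets-1 that the antibody met was their own. How much Ets-1 the cells make was not measured here. The labels do not say which virus, if any, the input cells carried. Each side is 1 library and no replicate is stated, so every comparison describes these libraries and carries no p-value.

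Ets-1 is the founding member of the ETS family, transcription factors that bind DNA through a conserved winged helix-turn-helix domain, the ETS domain. The domain contacts a GGAA core, and the bases around the core set how tightly a given member binds, with CCGGAAGT and CAGGAAGT among the preferred forms. Ets-1 is best known in lymphoid and endothelial cells, and ETS sites are common in the promoters of broadly expressed genes. Input reads show how well a stretch of genome is recovered, sequenced and aligned without any antibody.

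Sequences at the centre of 3 member regions are printed, each as 200 bases of the plus strand of GRCm38.p6 with every GGAA or TTCC core in capitals. The reads of a region need not lie on the printed bases. Irs1 and Txnip are shown as insulin signalling genes with over 30 reads at the promoter. Aldh4a1 is shown as 1 of the 9 members with CCGGAAGT, and its region held only 6 precipitation reads against 0 input reads.
Irs1, chr1:82290038-82290237: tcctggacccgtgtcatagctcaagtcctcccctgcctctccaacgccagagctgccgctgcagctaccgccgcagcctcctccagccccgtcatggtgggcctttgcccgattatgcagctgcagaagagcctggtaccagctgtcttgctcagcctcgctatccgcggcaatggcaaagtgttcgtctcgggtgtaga
Txnip, chr3:96559942-96560141: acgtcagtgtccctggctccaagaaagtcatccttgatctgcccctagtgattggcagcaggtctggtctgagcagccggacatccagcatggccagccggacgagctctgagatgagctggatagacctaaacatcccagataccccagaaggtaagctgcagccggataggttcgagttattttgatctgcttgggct
Aldh4a1, chr4:139630649-139630848: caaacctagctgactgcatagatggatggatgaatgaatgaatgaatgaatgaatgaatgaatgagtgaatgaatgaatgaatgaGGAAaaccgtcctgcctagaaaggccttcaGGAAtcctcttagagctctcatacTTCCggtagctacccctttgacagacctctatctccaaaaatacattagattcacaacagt
The Irs1 and Txnip windows held 0 cores on either strand. Aldh4a1 held 3 cores, with CCGGAAGT at chr4:139630786-139630793 on the minus strand.

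Coding exons 5 and 7 of Ets1 itself, counted from the lowest position among the merged coding exons of GENCODE M21, are printed with 25 bases of intron on either side, coding bases in capitals, since member regions lay over both.
Ets1 exon 5, chr9:32733915-32734213: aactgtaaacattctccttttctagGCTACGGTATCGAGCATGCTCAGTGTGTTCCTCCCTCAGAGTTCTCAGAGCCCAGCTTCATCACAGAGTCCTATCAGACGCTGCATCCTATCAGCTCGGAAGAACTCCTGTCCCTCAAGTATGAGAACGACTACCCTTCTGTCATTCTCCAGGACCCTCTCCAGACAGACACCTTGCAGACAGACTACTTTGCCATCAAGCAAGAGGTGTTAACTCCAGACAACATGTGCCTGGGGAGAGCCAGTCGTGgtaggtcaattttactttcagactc
Ets1 exon 7, chr9:32752774-32752942: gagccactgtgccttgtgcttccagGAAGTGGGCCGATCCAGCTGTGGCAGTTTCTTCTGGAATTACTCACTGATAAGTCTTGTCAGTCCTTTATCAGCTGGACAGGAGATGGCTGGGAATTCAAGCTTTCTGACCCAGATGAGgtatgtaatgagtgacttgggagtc

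Totals recovered from the deposited counts and RPM values were 1775757 reads for the precipitation and 3937473 for the input. The listed regions cover 5.93% of the genome. They held 54.8% of the precipitation's reads and 2.96% of the input's. Even numbers made up 74.5% of the nonzero precipitation counts, so both mates of a pair appear to have been counted, and intervals were computed on fragments of 2 reads. All intervals are 95% exact intervals that cover counting error only. The labels name no molecular identifiers, so PCR copies may count as separate fragments and these intervals may be too narrow. Most listed regions held reads of this precipitation and the rule asks for 5 or more, so a ratio above 1 follows in part from how regions were chosen. Many other listed regions held no read of this precipitation, and they count in the shares given for all listed regions.

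The member regions together held 74873 precipitation reads, 4.22% of that library, and 5042 input reads. Scaled to library totals, the summed ratio of precipitation to input was 32.9 (31.6 to 34.3). All listed regions on these chromosomes had a summed ratio of 18.6 (18.4 to 18.7), and those with 20 or fewer input reads one of 39.0. The members thus lay above the whole table and below the part of it that meets the same input limit. Input coverage in the members was 0.569 times what an even spread over the genome would give, and 0.183 times in the listed regions with 20 or fewer input reads.

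Most members were shallow. The median was 6 precipitation reads, 2744 members held 5 and 6187 held 6, so 78.1% rested on 3 fragments. Only 233 members (2.04%) held 12 or more reads, 78 held 20 or more and 9 held 100 or more, with a highest value of 192. Input reads were 0 in 8792 members (76.9%), 1 or 2 in 2381 and 3 to 20 in 256. At the edge of the rule, 33197 listed regions held 4 precipitation reads, and 8.56% of them lay at promoters, against 10.3% of those with 5. At the other edge the 13 members with 18 to 20 input reads had a median ratio of 5.10, and the 6 regions with 21 to 23 input reads one of 4.18.

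A ratio was computed per region, with 0 input reads replaced by a floor of 3, and "at least" marks a ratio against that floor. The median member ratio was 4.43, the quartiles were 4.43 and 5.91, and the range was 0.853 to 114. A ratio of 4 or more was reached by 9273 members (81.1%). Over the 44764 listed regions with more than 3 reads in either library the share was 31.0%, but the minimum of 5 reads uses the same contrast, so nothing is read from the gap. The lower bound of the interval lay above 1 in 1997 members (17.5%), where the same background was 4.66%, and above 4 in 22. The commonest member, 6 reads against 0, came to at least 4.43-fold, and its interval began at 0.916. Such a region on its own is within counting error of the input.

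**Figure D1:**
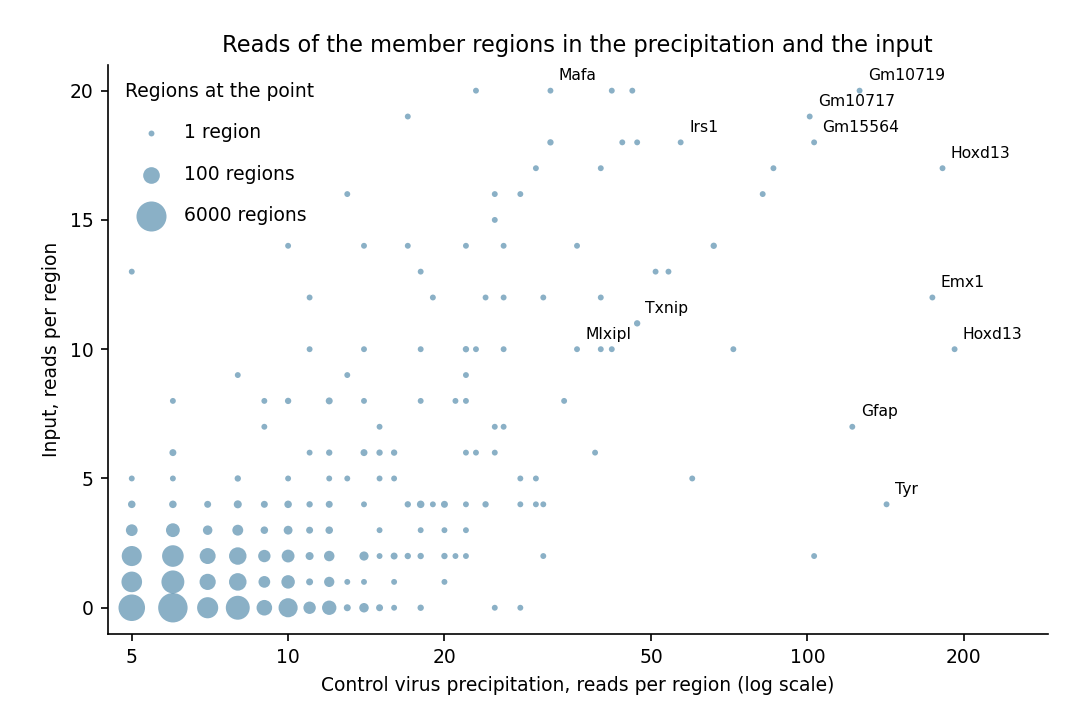
Each point is a pair of read numbers in the precipitation (x axis, log scale) and the input (y axis), and its area grows with the number of member regions there; names mark most regions with 100 or more reads and 4 genes of β-cell or insulin biology. Most members sit at 5 or 6 reads and 0 input reads, while regions with 20 or more reads spread up to the limit of 20 input reads.

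The deepest members differed from the rest in where they lay. Promoters, as the authors annotated them (within 2 kb of a start site), made up 9.19% of members with 5 to 7 reads, 9.72% with 8 to 11, 12.3% with 12 to 19 (7.54% to 18.5%) and 39.7% (28.8% to 51.5%) with 20 or more. In listed regions with 1 to 2 reads the share was 7.62%. Regions touching any coding base made up 3.92% of members with 5 to 7 reads (3.54% to 4.33%), 4.68% with 8 to 11, 12.9% with 12 to 19 (8.06% to 19.2%) and 34.6% with 20 or more (24.2% to 46.2%). Width did not grow in step with these shares: the median width was 469 bases at 5 to 7 reads, 557 at 8 to 11 and 443 at 20 or more. The promoter share stepped up at 20 reads and the coding share at 12. At 20 or more reads these shares largely describe the same regions. Of the 31 promoter members there, 19 were among the 27 members that touched coding bases, and 7 were named for predicted genes. Members with 5 to 7 reads lay somewhat above listed regions with 1 to 2 reads, which are narrower (median 238 bases), in promoter share and in coding share (2.85% there), and fewer of them had 0 input reads (78.5% against 92.4%).

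Base composition and input coverage also changed with read number. Mean GC content of the central 200 bases was 40.1% at 5 to 7 reads and 47.0% at 20 or more, and the mean number of CpG dinucleotides rose from 1.51 to 3.69. Repeat-masked bases made up 37.5% and 45.5%. Input coverage was 0.431 times even coverage at 5 to 7 reads, 2.74 times at 12 to 19 and 13.4 times at 20 or more. The summed ratio to input ran the other way, at 39.4, 12.4 and 10.2. The median ratio per region, with 0 input reads set to the floor of 3, rose instead, at 4.43, 8.87 and 9.45. Against that floor the ratio follows the read number that defines the groups, so no trend in enrichment is read from either measure. The deepest members thus held the most reads per region and the lowest summed ratio, and the part of input coverage in their depth was not tested.

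Of the 78 members with 20 or more reads, 43 held 10 or more input reads and 2 held none. At least 50% of the bases were coding in 16 of them, 35 were masked over at least 50% of the central window, and 30 were neither. The 16 coding regions had a median of 43.5 precipitation reads, 10.0 input reads and a ratio of 10.3, at 54.8% GC with a median masked share of 0. The other 62 had 28.0 and 10.0 reads and a ratio of 9.37, at 44.5% GC with 51.3% masked. The 2 sets thus had similar ratios and input reads, and differed in base composition.

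**Figure D2:**
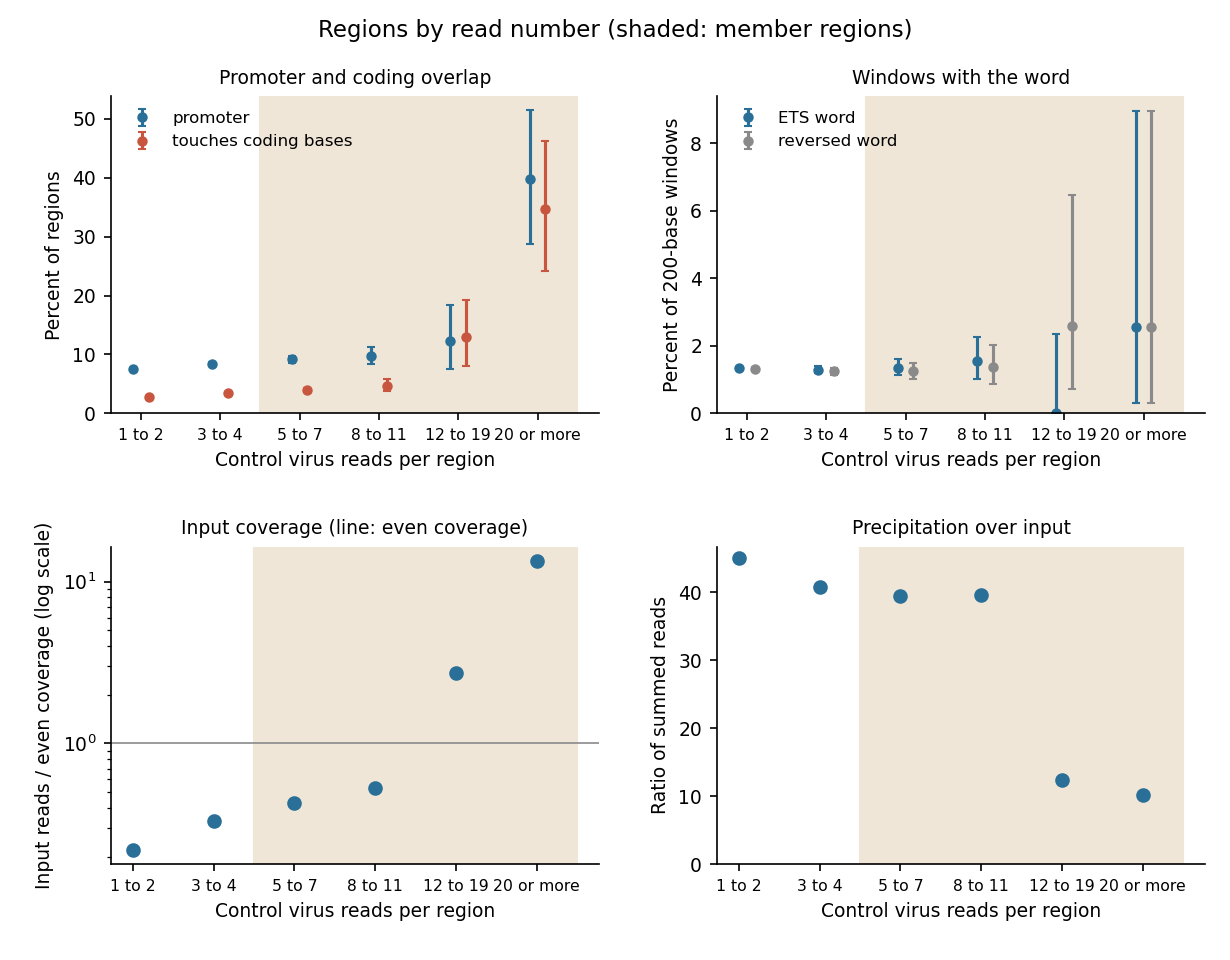
Listed regions with 20 or fewer input reads, by precipitation reads per region; bars are 95% exact intervals, and shading marks the member regions. Promoter and coding shares climb at 20 or more reads to 39.7% and 34.6%, the ETS word does not separate from its reversed form, input coverage (log scale) passes even coverage at 12 reads, and the summed ratio drops from 39.6 to 12.4 there.

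ETS words were about as frequent in the members as in all listed regions. Most listed regions also held reads of this precipitation, and sequence outside the listed regions was not scanned. The comparison therefore cannot show whether the words are more frequent here than over the genome. CCGGAAGT or CAGGAAGT, on either strand of the central 200 bases, occurred in 157 members, 1.37% (1.17% to 1.60%), and in 1.35% of all listed regions. The same letters in reverse order occurred in 147 members (1.29%) and 1.31% of listed regions. CCGGAAGT alone occurred in 9 members (0.0788%) and in 0.118% of listed regions. The bare GGAA core was in 86.5% of members and 87.5% of listed windows, a share so high that it separates nothing.

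The deepest members gave few windows with a word. Members with 20 or more reads held a word in 2 of 78 windows, and the reversed word in 2 as well. Members with 12 to 19 reads held a word in 0 of 155 windows, which allows a share of up to 2.35%, and the reversed word in 4. At 8 to 11 reads the shares were 1.54% and 1.36%. A word in these windows is a match of letters and not a measured site. No statement about Ets-1 follows from windows without one.

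At promoters, the genes with the highest lower bounds of the ratio were named by rule. Tyr, which encodes tyrosinase of the melanin pathway, led with 142 precipitation reads against 4 input reads at chr7:87492325-87492781, a ratio of 78.7 (21 to 663), and with a further region of 20 against 4. Emx1, a homeobox gene of the developing forebrain, held 174 against 12 (32.2, 14.2 to 90.01) at chr6:85193906-85194325. Hoxd13, a homeobox gene of limb patterning, held 182 against 17 (23.7, 11.3 to 50.6) at chr2:74668786-74669185. These genes are known from melanocytes, forebrain and limb rather than from β-cells, and all of these promoter regions touched coding bases.

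The next promoter genes held fewer reads. Zfp280d, a zinc finger gene, held 18 reads against 0, at least 13.3-fold. Fgf21, a fasting hormone of the liver, held 30 against 4 (16.6, 3.87 to 149.9), and Iqch 28 against 4 (15.5). Fgf5, a growth factor of hair growth control, held 20 against 2 (22.2, 3.15 to 962). Their intervals were wide, as the input held 4 reads or fewer.

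DNA methyltransferase genes appeared at 2 loci. Dnmt3a, which methylates new CpG sites, held 3 promoter members with 22 against 2 (24.4, 3.55 to 1049.9), 47 against 18 (5.79) and 15 against 6 (5.54). Dnmt1, which maintains methylation after replication, held 30 against 5 (13.3, 3.14 to 59.8). A further Dnmt3a region, annotated to the 3′ UTR class, held 22 against 4 (12.2). The nearest start sites to the 3 Dnmt3a promoter regions belonged to transcripts inside the gene.

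The remaining named promoter genes lay close together in ratio. Pak7, a kinase gene, held 47 against 11 (9.47), Carmil3 24 against 4 (13.3), Mtmr7, a phosphatase of the myotubularin family, 22 against 6 (8.13) and the pseudogene Ftl1-ps2 25 against 7 (7.92). Without any input read, the odorant receptor gene Olfr905 held 14 reads, Morf4l1 13 and Rfc1, a subunit of the clamp loader of DNA replication, 12. Their intervals overlapped throughout, so no order among them is read.

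**Figure D3:**
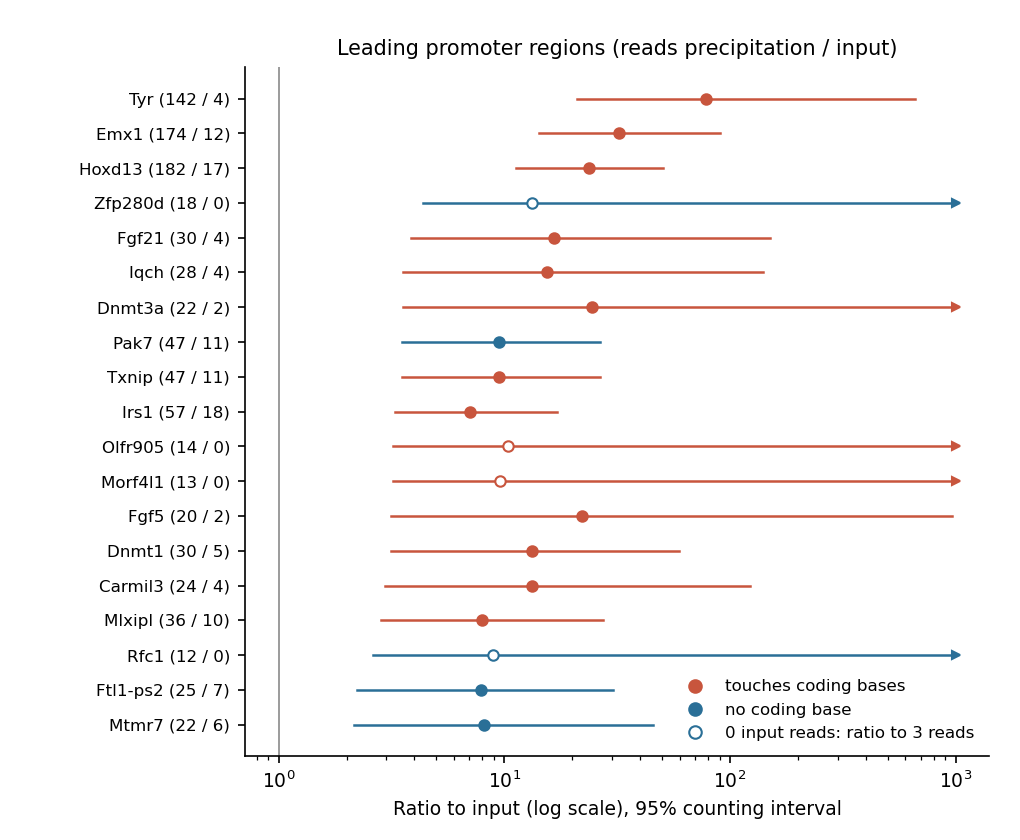
Ratio to input (log scale) with its 95% exact interval for the leading region of each of the promoter genes named in the text, with precipitation and input reads beside each name; arrows mark intervals that run past the right edge, and open circles mark a ratio to the floor of 3 reads. Tyr, Emx1 and Hoxd13 stand at 78.7, 32.2 and 23.7, and most other intervals overlap.

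Genes of insulin signalling and β-cell identity were among the deep members, with many input reads too. No alignments were used here, so whether the reads in these regions run past the exons they cover was not tested, and their promoter label is the table's class. Irs1, the adaptor that passes on the insulin receptor's signal, held 57 against 18 at chr1:82289782-82290494, a ratio of 7.02 (3.29 to 17.2), and 22 against 10 in a region annotated as exon (4.88, 1.56 to 17.9). Coding bases made up 99.9% and 100.0% of these regions, and input coverage was 16.4 and 10.5 times even coverage. Txnip, the glucose-induced inhibitor of thioredoxin, held 47 against 11 at chr3:96559556-96560529 (9.47, 3.53 to 26.5), 17 against 4 (9.42, 2.07 to 94.9) and 7 against 0 (at least 5.17-fold). Mlxipl, which encodes the glucose-responsive factor ChREBP, held 36 against 10 at chr5:135132360-135134066 (7.98, 2.86 to 27.5). Mafa, a β-cell activator of the insulin genes, held 32 against 20 at chr15:75746706-75747751 (3.55, 1.51 to 8.75), with 86.6% coding bases, and 6 against 0 in a distal region. All of these promoter regions touched coding bases, and the 3 Txnip regions ran over 7 of its 8 merged coding exons. Counted from the lowest position, the longer Txnip region ran over coding exons 5 to 8. The Mlxipl region ran over coding exons 9 to 13 of 16, so the promoter class here does not mean the first exon of the gene.

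The other β-cell genes looked up whatever they showed were low. The Ins2 promoter, at chr7:142679634-142680016, held 19 reads against 21 input reads, a ratio of 2.01 (0.768 to 5.23), and the input limit left it out. A member 19012 bases before the annotated start site of Ins2 held 8 against 1. Ins1, the other insulin gene, had 5 distal members of 5 or 6 reads against 0, and none at its promoter. Regions named for Pdx1, Neurod1, Nkx6-1, Slc2a2 and Foxo1 held at most 4 precipitation reads, so none was a member. A region over the coding sequence of Pdx1, the pancreatic master regulator, was a member under the name of its neighbour Plut, with 5 against 2 (5.54, 0.534 to 349). The insulin genes thus showed no promoter member. At the Ins2 promoter the interval of the ratio included 1 but also reached 5.23, so it does not settle whether the libraries differed there.

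Outside promoters, the leading named genic regions again held exons of genes from other tissues. Hoxd13 held 192 against 10 (42.6, 17.6 to 134) in its downstream exon. Gfap, which encodes the intermediate filament of astrocytes, held 122 against 7 at chr11:102892870-102893266 (38.7, 12.6 to 128). Both regions covered coding bases with sequence outside them. Intron regions led by Polq, a DNA polymerase gene, held 82 against 16 (11.4, 5.26 to 28.1) over 92.5% masked bases, and Cdk5rap2, a centrosome gene, held 54 against 13 (9.21). Dnmbp, Myzap, AC154538.2 and Fbxw7 held 14 to 16 reads against 0.

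Member regions also lay over coding exons of Ets1 itself. Under its own name Ets1 had 15 listed regions with at most 2 precipitation reads and no member. Over its coding exons, however, lay 4 listed regions that the table names for Gm27240, an antisense gene at the locus. The region over exon 5 held 14 against 8 (3.88, 0.987 to 18.1) and that over exon 6 held 4 against 4. Over exon 7 the region held 12 against 0 (at least 8.87-fold), and over exon 8 it held 2 against 0. The regions over exons 5 and 7 are members, and the sequences of these exons are printed above. Exon bases made up 248 of 390 in the region over exon 5 and 119 of 825 in that over exon 7. The reads therefore need not lie on the printed bases. The region over exon 5 began 1 base inside the exon, at 32733941, where the exon begins at 32733940.

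Across the genome, 477 genes had a member over a coding exon, 18 had 2 or more and 3 had 3 or more, among them Dnmt3a with 4 and Txnip with 3. Regions touching any coding base made up 4.37% of members and 2.92% of all listed regions, which are narrower (median 249 bases against 479). Genes with any listed region over a coding exon were not counted, so the gene counts have no background. Ets1, Irs1, Mlxipl, Hoxd13, Tyr, Cftr and Fbn1 were among those with 2. A region end within 5 bases of a coding exon's edge was found in 0.149% of all members, against 0.160% of all listed regions. The share was 0.0841% with 5 to 7 reads (0.0363% to 0.166%) and 0.178% with 8 to 11. It was 3 of 155 with 12 to 19 (1.94%, 0.401% to 5.55%) and 3 of 78 with 20 or more (3.85%, 0.8003% to 10.8%). Deeper members also touched coding bases more often, and the part of that in these few regions was not tested. The 6 such members with 12 or more reads included the Irs1 promoter region, 2 of Txnip, the region over Ets1 exon 5 and a predicted gene on chromosome 9. These genes were looked at exon by exon after their values were seen.

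**Figure D4:**
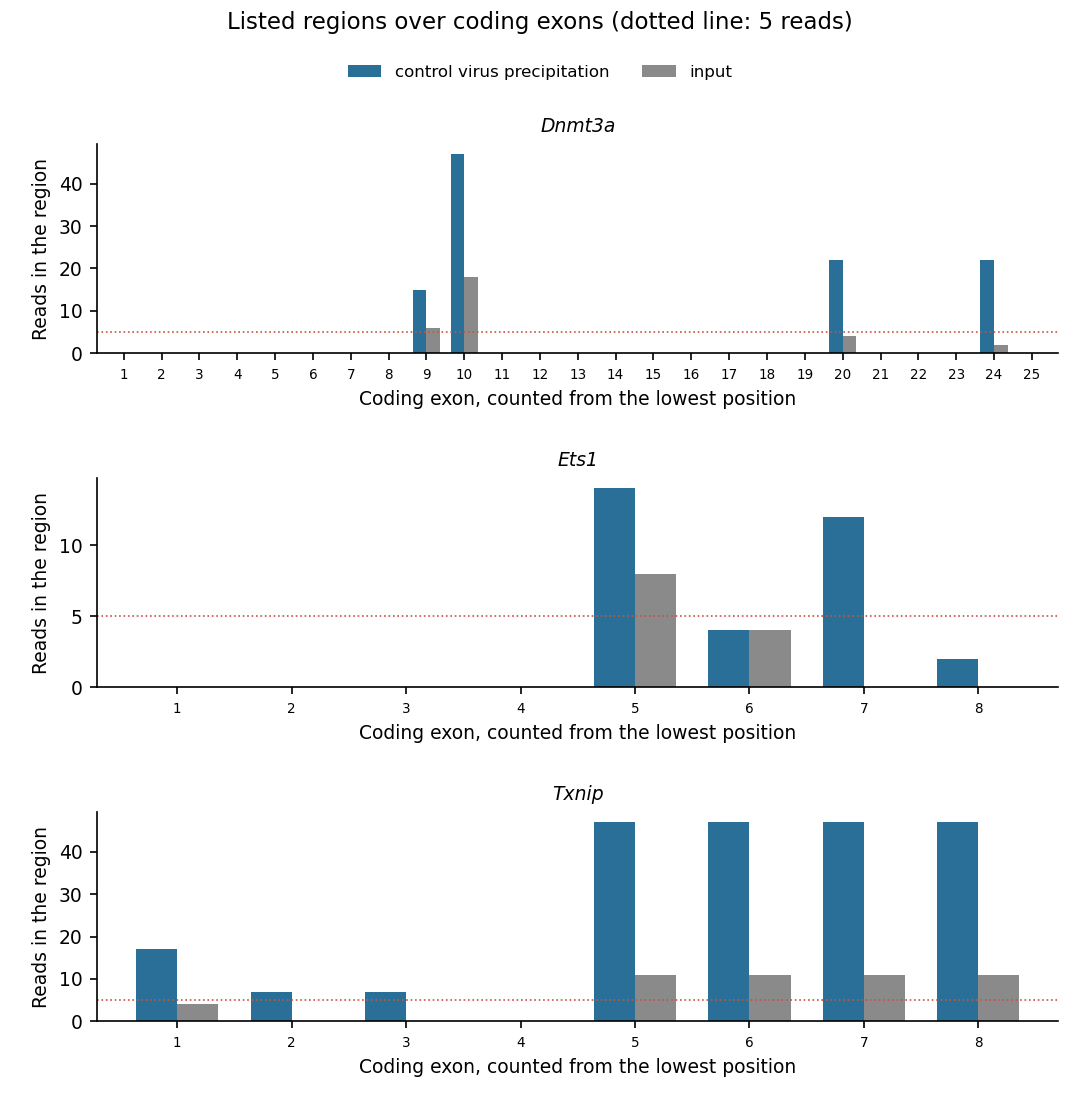
Reads of the precipitation (blue) and the input (grey) in the listed region over each merged coding exon of Dnmt3a, Ets1 and Txnip, with exons numbered from the lowest position; a region over several exons is drawn at each, and an exon without a bar has no listed region or no reads. For Dnmt3a 4 of 25 exons pass the dotted line of 5 reads, for Ets1 2 of 8 and for Txnip 7 of 8.

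Gene lists for this tissue and for others were read against all protein-coding genes. Of 11484 such genes with a listed promoter region, 5.57% had a promoter member, and of 18501 named nearest to any listed region, 19.3% had any member. Over 15 lists, 14 of the 185 genes with a listed promoter region had a promoter member, and 70 of the 274 with any listed region had a member of any class. In the β-cell identity list the genes with a promoter member, by the annotated class, were Mlxipl and Mafa, 2 of 16. In the list for insulin signalling and the FoxO factors they were Txnip, Irs1 and Grb10, 3 of 17, where Grb10, an adaptor that dampens insulin signalling, held 5 against 0. The secretory granule list had 1 of 9, Vps13a with 6 against 2, and the antioxidant list 1 of 12, again Txnip.

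No gene of the glucose sensing list had a promoter member, of 15 with a listed promoter region, nor of the unfolded protein response (11), the ETS family (15), ribosomal proteins (14) or oxidative phosphorylation (20). Away from promoters, the calcium channel gene Cacna1c held 14 against 2 in an intron (15.5, 1.99 to 699), and 8 of the 21 listed glucose sensing genes had some member. Among ETS family genes 7 of 22 had a member, with at most 9 reads, at Etv1 (9 against 3). Atf6, a sensor of endoplasmic reticulum stress, was the only gene of its list with a member, at 8 reads or fewer. The cell cycle list had 2 of 14, Rfc1 and Mki67, the latter with 6 against 0.

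Lists for other tissues gave counts of the same order. The liver and muscle list had 3 of 11, namely Fgf21, Mstn and Alb. Mstn, which encodes the muscle growth inhibitor myostatin, held 26 against 10 (5.77, 1.93 to 20.7), and Alb, the albumin gene, 5 against 0. Other islet hormone genes had 0 of 4, acinar and duct genes 0 of 10, and endothelial, immune and fibroblast genes 0 of 10. These lists are too short to set one apart from another. Olfactory and vomeronasal receptor genes, silent in most tissues, had 41 of 1377, pseudogenes included. The protein-coding ones had 33 of 1077, 3.06% (2.12% to 4.28%), under the 5.57% of all protein-coding genes; this group was read as a description and not tested.

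Promoter members as a whole were mostly shallow, as all members were. Of 1088 promoter member regions, 874 held 5 to 7 reads, 214 held 8 or more and 50 held 12 or more, and 699 genes, leaving out predicted ones, had at least 1. In all members, 9.52% lay at promoters (8.99% to 10.1%) against 7.69% of listed regions, 34.5% in introns against 34.2%, 49.7% in distal intergenic stretches against 52.6% and 4.68% in exons and UTRs against 3.98%. The member and listed proportions differed by less than 3 percentage points in each class.

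Distal regions with the highest lower bounds lay in repeats for the most part. The region nearest Ada held 21 against 2 (23.3, 3.55 to 1049.9) over 64.0% masked bases, Gab3 on the X chromosome 20 against 1 (44.4, 3.15 to 962) over 73.0%, Itga11 25 against 6 (9.24) over 89.5% and Fam220a 18 against 2 (19.96) over 70.5%. Bcat1 and Bnip2 held 14 and 12 against 0. None of these lay within 2 kb of a start site.

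A stretch near the start of chromosome 9, chr9:3011518-3029007, held 5 members of 20 or more reads, 360 precipitation reads and 72 input reads in all. They are named for the predicted genes Gm10721, Gm10719 and Gm10717, and genes of this group appear in the list of satellite-associated genes, where 3 of 10 had a promoter member. Gm10719 held 126 against 20 (13.97, 7.12 to 30.5) and Gm10717 101 against 19 (11.8, 5.68 to 24.98). These 2 are among the 9 members with 100 or more reads, and 6 of the 9 had coding bases over at least 50% of their length. Masked bases made up 90.5% and 93.5% of the central windows of Gm10719 and Gm10717.

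Chromosomes differed in how many of their listed regions were members, and X was lowest. On the autosomes 1.77% (chromosome 7, 1.62% to 1.92%) to 3.04% (chromosome 16, 2.80% to 3.31%) of listed regions were members, with chromosomes 12 at 2.66% and 6 at 2.50%, so the intervals of chromosomes 16 and 7 did not overlap. On X the share was 0.919% (0.817% to 1.03%), and members numbered 1.71 per Mb against 3.65 to 5.65 on the autosomes. Regions were listed on X at 186.5 per Mb, within the autosomal range of 180.7 to 221.0. Input reads in the other listed regions came to 0.138 per kb on X and 0.236 to 0.318 on the autosomes, highest on chromosome 16. Across the 20 chromosomes the member share and this input level had r = 0.880 and rho = 0.630, and across the 19 autosomes r = 0.747 and rho = 0.568. The points share both libraries and differ in length and base composition, so this is a description, and the part of input in the X value was not tested.

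**Figure D5:**
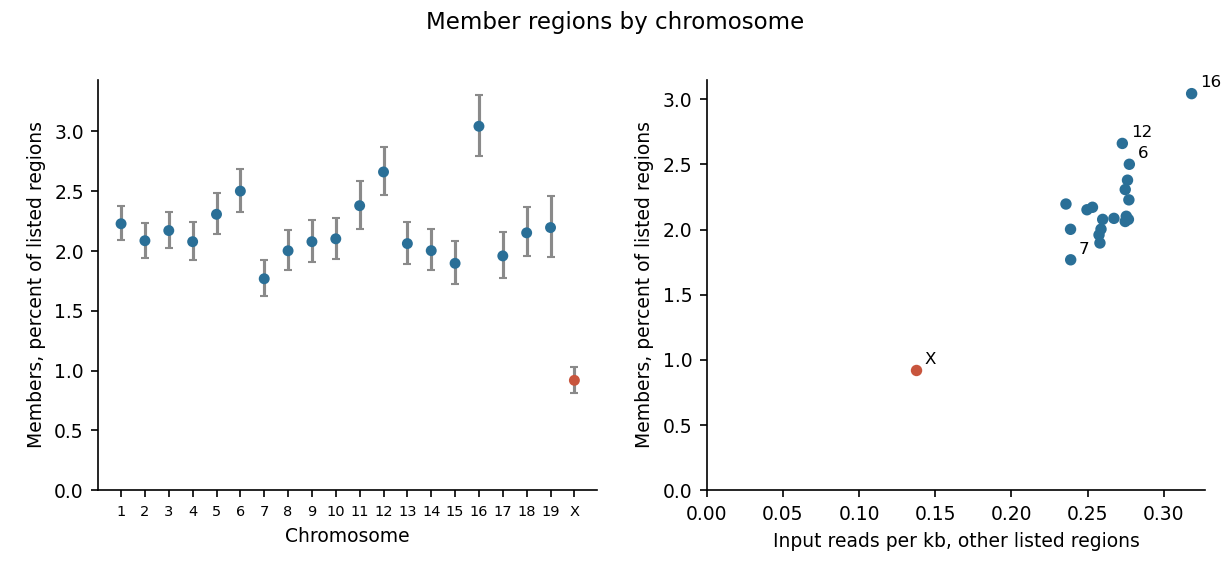
Left, member regions as a percentage of listed regions on each chromosome with 95% exact intervals; right, the same share against input reads per kb in the other listed regions, 1 point per chromosome. X (orange) sits at 0.919% and 0.138 reads per kb, below all autosomes on both axes.

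The authors' own values give a further view of the same reads. In the authors' deposited table the ratio of RPM values, which adds 1 read to each count, had a median of 15.5 over the members and a highest value of 76.9. Of the members, 11383 overlapped a peak of the authors' deposited table of control virus peaks, and 46 did not. The overlapping peak had a q-value of 0.05 or less in 2548 members (22.3%) in the authors' deposited table, against 2758 (0.508%) of all listed regions. The share rose from 18.4% of members with 5 to 7 reads to 48.7% with 20 or more. These q-values rest on the same reads as the rule and the read groups, so nothing is read from the gap or the rise. In the authors' deposited table the −log10 q-value was 41.9 for the Hoxd13 promoter region, 38.1 for Tyr and 7.51 for the Irs1 promoter region. It was 0.903 for both Mafa and the longer Txnip region in the authors' deposited table, so these 2 did not pass 0.05 there.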

How the data were processed

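Min6 chromatin from 3 libraries was sequenced in pairs, of which the control virus precipitation and the input are used here. The submitters' processing notes name BWA 0.7.12, MACS2 2.1.0, Trimmomatic, FastQC and the build mm10; the sources used here give no settings, duplicate handling or peak calling control. The authors deposited whole-number read counts per region and RPM values of the count plus 1, from which library totals were recovered. The authors also deposited a ratio of RPM values and, per peak, −log10 q-values, used as description. All but 46 members lie in called control virus peaks, a choice that raises ratios to input.

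Ratios were reads divided by library totals. Intervals were exact conditional binomial on fragments, and shares had exact Clopper-Pearson intervals (95%). The ratio intervals were tested on simulated independent counts, and the word search on random sequences. Classes and nearest genes are those deposited; names, coding exons and UTRs came from GENCODE M21, sequence and repeat masking from GRCm38.p6. GC, CpG, repeats and words were read in the central 200 bases of each region. Genes were named by rule: 13 fixed genes, the 20 promoter, 10 other genic and 10 distal genes with the highest lower bounds (without predicted genes), and up to 4 genes per list; coding exons were read after values were seen. Some items that the rule selects are not reported here. Members, lists and rule were chosen with earlier results of these data known. Alternatives covered read limits, scaling, floor, threshold, promoter and word definitions. The tools were scipy 1.17.1, pandas 2.3.3, numpy 2.4.6 and matplotlib 3.10.9 in Python 3.11.15.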

Additional observations from a re-analysis of the deposited data

Results flagged for a closer look

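Regions that the rule leaves out also held precipitation reads above input. On chromosome Y and unplaced scaffolds, 599 listed regions held 3461 precipitation reads and 965 input reads, a summed ratio of 7.95 (7.18 to 8.81). The 94 regions of chromosomes 1 to 19 and X with 5 or more precipitation reads and over 20 input reads held 219501 and 73031 reads, a summed ratio of 6.66 (6.59 to 6.74). They make up 12.4% of the precipitation library and 1.85% of the input, against 4.22% and 0.128% in the 11429 member regions. Their input coverage was 745 times even coverage, and its part in these ratios was not tested. Among these 94, a region nearest a gene of the satellite-associated list alone held 110707 precipitation reads, so the sums lean on it.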

How the results depend on the processing

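The 9273 members at 4-fold or more became 13833 with a minimum of 3 reads. That count was taken over the 44635 such regions with more than 3 reads in either library (31.0%, against 81.1%). The count was 11312 with 1 read added to both libraries and 11429 against even input coverage. It was 1889 with a minimum of 8 reads, 211 with 12, 1695 at 8-fold, and 1997 by a lower bound past 1. Scaling to the summed reads of the listed regions with 20 or fewer input reads left 0 and turned the median of 4.43 to 0.114. By library totals those regions had a summed ratio of 39.0, which counts input reads of 0 as they are. In the median, by contrast, the 76.9% of members with 0 input reads are set against the floor of 3. The median was 2.96 with a minimum of 3 reads, over the same 44635 regions, and 5.91 and 8.87 with minimums of 8 and 12. It was 15.5 with 1 read added to both libraries and 18.4 against even input coverage. The promoter share of 9.52% was 8.65% with a minimum of 3 reads, over all 58197 such regions. It was 11.1% and 21.5% with minimums of 8 and 12 reads, and 7.17% within 1 kb. The ETS word share of 1.37% was 0.0788% for CCGGAAGT alone, 3.30% over whole regions (1.90% of all listed regions, which are shorter) and 0.858% with a minimum of 12 reads. The 14 list genes with a promoter member became 70 with any region. Input limits, leaving out X or wide regions, and peak overlap moved the count within 7296 to 9339. No paired analysis was possible because each side is 1 library. Depth limits single regions: 6 reads against 0 has a lower bound of 0.916, and 78.1% of members held 5 or 6 reads.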

Other observations

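Nearest genes of the members were protein-coding for 4772 regions, 41.8% against 38.4% of listed regions. A processed pseudogene was nearest to 2604 members, 22.8% against 24.2%, and a lincRNA to 1268, 11.1% against 11.9%. Neighbouring members lay a median of 145 kb apart, and 84 neighbouring pairs lay less than 1 kb apart.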
